A study of Mus musculus with 6 samples.

Results

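The alveolar basement membrane genes described here are 9 rows of the count table, chosen by symbol from the 24421 genes it holds: the collagen IV chains *Col4a1*, *Col4a2*, *Col4a3* and *Col4a4*, the laminin chains *Lama3*, *Lama5* and *Lamb3*, the nidogen *Nid1* and the proteoglycan *Agrn*. They were followed across poly(A) RNA libraries of alveolar type 2 (AT2) cells, the surfactant-making cells of the lung, sorted by their lineage label. The 3 control mice carried Sftpc-CreERT2/+; R26-tdTomato/+, in which tamoxifen switches on the red label in cells that use the *Sftpc* promoter. The 3 caBmpr1a mice carried Sftpc-CreERT2/+; R26-tdTomato/R26-caBmpr1a and so also held an allele from which Cre switches on a constitutively active form of the BMP receptor BMPR1a. Label and receptor alleles recombine separately, so a sorted cell with the label need not express the receptor, and the share that did is not known from the counts. Both groups were kept on a C57BL/6 background and were given tamoxifen. In each group 1 mouse was 16 weeks old (control replicate 2, caBmpr1a replicate 1) and the others were 12 weeks old. The libraries held 22909120, 24490233 and 27915100 counts in control replicates 1, 2 and 3, and 21554249, 24716504 and 28440227 counts in caBmpr1a replicates 1, 2 and 3. Counts are given below as CPM (counts scaled to a common library depth), and 3 counts, the level that a count of 0 still allows, correspond to between 0.0976 and 0.138 CPM, which covers counting error only.

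A basement membrane is the thin sheet of matrix on which an epithelium sits. In the alveolus, epithelial and capillary endothelial cells share a fused sheet across which gas is exchanged. Laminin trimers, each with an alpha, a beta and a gamma chain, bind the cells and form the layer next to them, collagen IV trimers build a covalent network, and nidogens and heparan sulfate proteoglycans such as perlecan and agrin join both. *Col4a1* and *Col4a2* encode the chains of the network found in nearly all basement membranes, while *Col4a3* and *Col4a4*, with *Col4a5*, encode the network of the alveolus and the kidney glomerulus.

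The libraries carried the mark of their genotype. *Id1*, a direct target of BMP signaling, was at 18.5, 20.8 and 19.2 CPM in the control libraries and at 124, 177 and 411 CPM in caBmpr1a replicates 1, 2 and 3. *Id3*, a gene of the same family, was at 13.8, 15.6 and 11.2 CPM in the controls and at 179, 247 and 545 CPM in the caBmpr1a libraries. Replicate 3 was the highest and replicate 1 the lowest of the caBmpr1a libraries for both genes, and both passed the test (log2 fold change 3.61 and 4.58, adjusted p = 0.0172 and 0.00758, edgeR). The calls depended on which library was left out. They were kept without caBmpr1a replicate 1 (adjusted p = 0.00379 for *Id1* and 0.00259 for *Id3*, edgeR), without caBmpr1a replicate 3 (0.00198 and 0.00123), where the log2 fold change of *Id1* was 2.99, and in the 4 libraries without Y-linked reads (0.00281 and 0.00211). EdgeR's adjusted p without control replicate 1, 2 or 3 was 0.0955, 0.130 and 0.110 for *Id1* and 0.0536, 0.0602 and 0.0595 for *Id3*, and it was 0.0544 for *Id1* and 0.0202 for *Id3* without caBmpr1a replicate 2, all at log2 fold changes of 3.56 or more. *Bmpr1a* was at 105, 129.9 and 125 CPM in control and 131, 128 and 96.8 CPM in caBmpr1a cells, and the groups overlapped. The defining AT2 gene *Sftpc* had the highest level among the AT2 markers, at 127608 TPM (counts divided by gene length and put on a common total) on average. Before any comparison it has to be said that 2 libraries stood apart: control replicate 1 and caBmpr1a replicate 3 had 3935 and 4494 counts on 4 genes of the Y chromosome (*Kdm5d*, *Eif2s3y*, *Uty* and *Ddx3y*), and the other 4 libraries had 0. The first principal component, with 49.9% of the variance, placed them at 24.6 and 59.9, against values from -39.9 to -5.69 in the others. Results are therefore also given for the 4 libraries without these reads, 2 of each group.

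All 9 genes passed the expression filter, along with 16723 genes in all, and all 9 were detected in every library. None of the 9 passed the test between the groups (edgeR's quasi-likelihood test, adjusted p under 0.05 over all tested genes and a change over 2-fold), against 0.227% of all tested genes called higher and 0.0120% called lower in caBmpr1a cells. DESeq2 also called 0 of the 9, against 144 of 13672 genes in all. At an unadjusted p under 0.05, 3 of the 9 were higher (*Lamb3*, *Col4a3* and *Nid1*) and 0 were lower, against 4.62% and 5.05% of all tested genes. For *Lamb3* and *Lama5*, 2 of the 9, the 3 caBmpr1a values all lay above the 3 control values, against 7.0% of all tested genes. For 0 of the 9 they all lay below, against 10.1%. The fitted log2 fold change was above 0 for 8 of the 9, with *Col4a1* at -0.014 as the exception, whose sign turned with scaling by the median of ratios (0.011) or by library size only (0.12). Among all tested genes 48.8% were above 0. The median over the 9 genes was 0.37, and -0.0096 over all tested genes. In the 4 libraries without Y-linked reads the median was 0.30 over the 9 genes and 0.016 over all tested genes, and 8 of the 9 were again above 0.

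**Figure D1:**
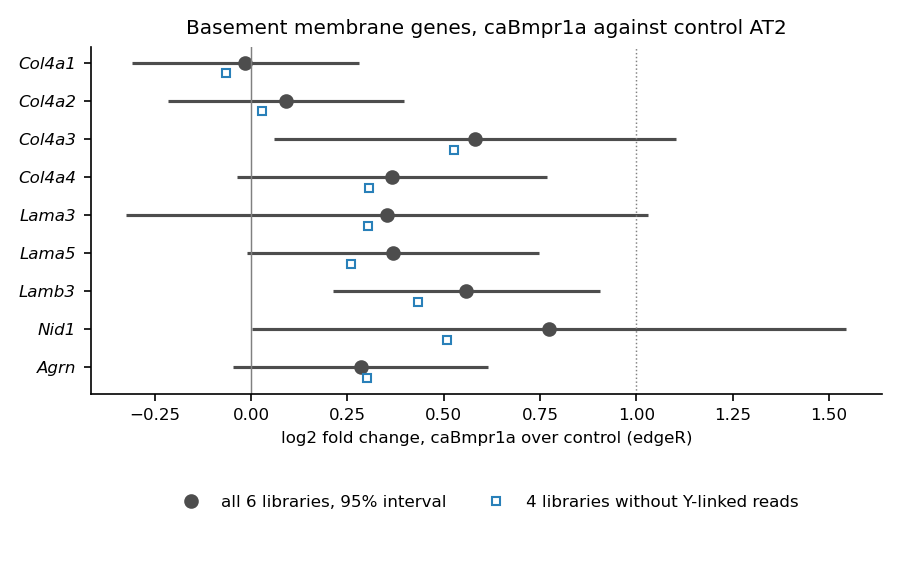
The log2 fold change of each of the 9 genes in caBmpr1a over control AT2 cells, from edgeR (circles, with 95% intervals, n = 3 libraries per group) and in the 4 libraries without Y-linked reads (squares). The intervals of *Lamb3*, *Col4a3* and *Nid1* lie above 0, and those of *Col4a3*, *Lama3* and *Nid1* reach past the dotted line at a log2 of 1.

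The number of genes with an unadjusted p under 0.05 moved with single libraries. It was 5 without control replicate 2, 1 without caBmpr1a replicate 2 and 1 without caBmpr1a replicate 3, where 4.76%, 3.94% and 4.60% of all tested genes were higher at that level. It was also 7 with a covariate for the Y-linked reads and 6 with scaling by library size only, fits that raised the share of all tested genes from 4.62% to 7.97% and 8.14%, and 0 of the 9 passed the adjusted threshold in any of these fits.

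Per transcript length, the genes spanned a wide range of levels. *Col4a1* had the highest level, at 239 ± 25.6 TPM (SD, n = 6 libraries), followed by *Col4a2* at 225 ± 31.5 and *Lamb3* at 195 ± 57.4 TPM. These 3 stood within the top 4% of tested genes (percentiles 97.0, 96.8 and 96.2 by mean TPM), and their ranges overlapped. *Lama5* came next at 86.1 ± 20.6 TPM, and every library had *Lamb3* above *Lama5*, with no overlap between their ranges. *Agrn* followed at 63.1 ± 13.6, *Col4a3* at 30.1 ± 11.2, *Col4a4* at 22.2 ± 5.94 and *Lama3* at 19.6 ± 6.63 TPM. *Col4a4* exceeded *Lama3* in 4 of the 6 libraries, so these neighbours were not separated beyond their spread. *Nid1* had the lowest level, at 6.69 ± 3.07 TPM, below *Lama3* in each of the 6 libraries although their ranges overlapped. Together the 9 genes took from 0.208% of all counts, in control replicate 1, to 0.315%, in caBmpr1a replicate 3.

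**Figure D2:**
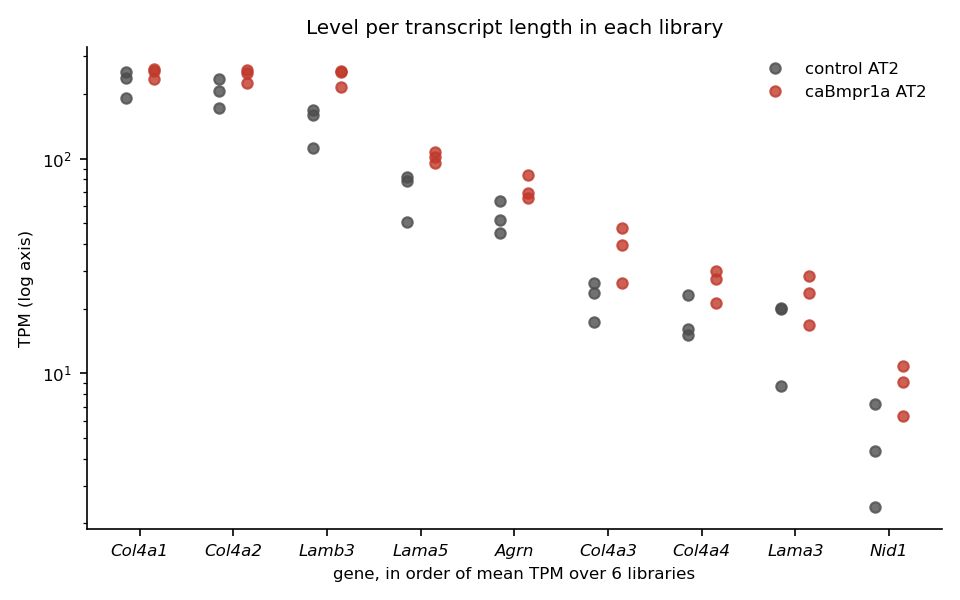
Level of each gene in TPM (log axis) in the 3 control and the 3 caBmpr1a libraries, with genes in order of their mean over the 6 libraries. *Col4a1*, *Col4a2* and *Lamb3* share the top, and *Nid1*, with a range from 2.38 to 10.8 TPM, is at the bottom.

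The collagen IV genes lie in head-to-head pairs, and their start regions are shown because both genes of a pair are read from the same stretch of DNA. *Col4a1* (mm10 chromosome 8, 11198423 to 11312826, minus strand) and *Col4a2* (chromosome 8, 11312829 to 11449287, plus strand) are 2 bases apart in the annotation used for the counts. *Col4a4* (chromosome 1, 82450723 to 82586849, minus strand) and *Col4a3* (chromosome 1, 82586921 to 82722059, plus strand) are 71 bases apart. RefSeq promoter windows on GRCm38.p6, from 250 bases before to 50 bases after a start site, were matched by symbol for 7 of the 9 genes, without *Col4a3* and *Lama3*. In the *Col4a1* and *Col4a2* windows, written 5′ to 3′ on each gene's strand at chr8:11312777-11313076 and chr8:11312555-11312854, capitals mark the 78 bases that both windows hold. In the *Col4a4* window at chr1:82586800-82587099, minus strand, which contains the start of *Col4a3*, and in the *Lamb3* window at chr1:193301744-193302043, plus strand, shown because *Lamb3* had the smallest adjusted p of the 9 genes, capitals mark matches to the motifs listed in the next paragraph.
Col4a1: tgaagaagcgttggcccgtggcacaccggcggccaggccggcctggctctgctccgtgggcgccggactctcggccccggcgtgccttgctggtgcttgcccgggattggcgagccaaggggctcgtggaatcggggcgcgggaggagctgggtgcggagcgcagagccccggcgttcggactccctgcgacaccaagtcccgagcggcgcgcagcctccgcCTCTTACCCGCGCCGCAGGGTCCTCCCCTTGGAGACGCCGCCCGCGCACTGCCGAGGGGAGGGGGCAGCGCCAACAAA
Col4a2: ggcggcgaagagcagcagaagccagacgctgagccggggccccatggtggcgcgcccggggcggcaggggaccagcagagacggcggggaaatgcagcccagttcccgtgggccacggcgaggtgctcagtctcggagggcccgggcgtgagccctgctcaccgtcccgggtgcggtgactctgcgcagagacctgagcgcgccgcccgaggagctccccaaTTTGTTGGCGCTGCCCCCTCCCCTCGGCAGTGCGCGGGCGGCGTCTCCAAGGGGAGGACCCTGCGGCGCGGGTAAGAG
Col4a4: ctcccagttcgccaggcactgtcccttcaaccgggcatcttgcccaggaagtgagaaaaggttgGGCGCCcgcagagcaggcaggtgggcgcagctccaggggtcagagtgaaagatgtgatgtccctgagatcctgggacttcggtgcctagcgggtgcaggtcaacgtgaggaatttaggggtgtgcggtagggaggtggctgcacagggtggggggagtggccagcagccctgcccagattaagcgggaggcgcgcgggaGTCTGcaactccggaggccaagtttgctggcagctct
Lamb3: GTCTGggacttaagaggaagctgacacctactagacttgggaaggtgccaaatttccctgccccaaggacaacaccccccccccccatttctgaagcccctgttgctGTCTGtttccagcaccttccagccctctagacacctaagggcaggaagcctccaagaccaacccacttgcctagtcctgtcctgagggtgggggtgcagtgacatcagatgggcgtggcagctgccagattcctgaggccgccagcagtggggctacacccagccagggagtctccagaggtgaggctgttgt

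Each window was searched on both strands for GGCGCC and CAGAC, letters that SMAD proteins are known to bind, for GGGCGG (the GC box), CCAAT and TGACTCA (AP-1), and matches of different motifs may overlap. The 7 matched genes had 9 windows. GGCGCC was present in 11.9% of 32851 promoter windows of the same length. It was in 4 of the 9, those of *Col4a1*, *Col4a4* and *Lama5* and the upstream window of *Agrn*. CAGAC was present in 49.6% of all windows and in 5 of the 9, those of *Col4a2*, *Col4a4*, *Lama5* and *Lamb3*. The GC box was in 35.7% of all windows and in 6 of the 9, which belong to 5 of the 7 matched genes. The upstream start of *Agrn* (chr4:156197439-156197738) had 12 matches, while *Col4a4* and *Lamb3* had 0. CCAAT was in 37.4% of all windows and in 3 of the 9, those of *Col4a1*, *Col4a2* and *Nid1*. TGACTCA was in 5.2% of all windows and in 0 of the 9. G and C made up 74.0% and 73.7% of the *Col4a1* and *Col4a2* windows, against a median of 52.7% over all windows. The lowest value among the 9 windows was 59.3%, for *Lamb3*, so all were richer in G and C than the median. The *Lamb3* window held 2 CpG dinucleotides, against 37 in the *Col4a1* window and a median of 7. These matches describe letters in a window and are not binding sites.

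Of the collagen IV chains, those of the common network had nearly equal levels in both groups. *Col4a1* was at 647, 768 and 726 CPM in control replicates 1, 2 and 3 and at 682, 713 and 725 CPM in the caBmpr1a libraries. All caBmpr1a values lay inside the control range. Its log2 fold change had a 95% interval from -0.31 to 0.28 (adjusted p = 0.980, edgeR). *Col4a2*, its partner in the trimer, was at 566, 697 and 616 CPM in control and 632, 677 and 693 CPM in caBmpr1a cells. The groups overlapped, with a log2 fold change of 0.092 and an interval from -0.21 to 0.40 (adjusted p = 0.854, edgeR). A change of 2-fold was outside the interval of either gene. In the 4 libraries without Y-linked reads the values were -0.065 for *Col4a1* and 0.030 for *Col4a2*. The sign differed between ages for both, with log2 ratios of caBmpr1a to control of 0.067 and 0.21 at 12 weeks and -0.17 and -0.14 at 16 weeks, where each group had 1 library.

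The chains of the alveolar and glomerular network had higher means in caBmpr1a cells, without passing the test. *Col4a3* was at 104, 104 and 69.0 CPM in control replicates 1, 2 and 3 and at 99.3, 143 and 171 CPM in the caBmpr1a libraries. CaBmpr1a replicate 1 lay among the controls, and replicates 2 and 3 lay above all of them. Its mean was 92.2 ± 20.1 CPM in control and 138 ± 36.2 CPM in caBmpr1a cells (SD, n = 3), which gave a fitted log2 value of 0.58 with a standard error of 0.23 (adjusted p = 0.471, edgeR). *Col4a4* was at 60.2, 83.3 and 58.4 CPM in control and at 72.2, 98.4 and 89.6 CPM in caBmpr1a cells. Control replicate 2 exceeded caBmpr1a replicate 1, so the groups overlapped (log2 fold change 0.37, standard error 0.18, adjusted p = 0.554, edgeR). In the 4 libraries without Y-linked reads the log2 fold changes were 0.53 for *Col4a3* and 0.31 for *Col4a4*. Both were higher in caBmpr1a cells at 12 weeks (log2 ratios 0.87 and 0.67) and not at 16 weeks (-0.068 and -0.21, 1 library of each group).

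**Figure D3:**
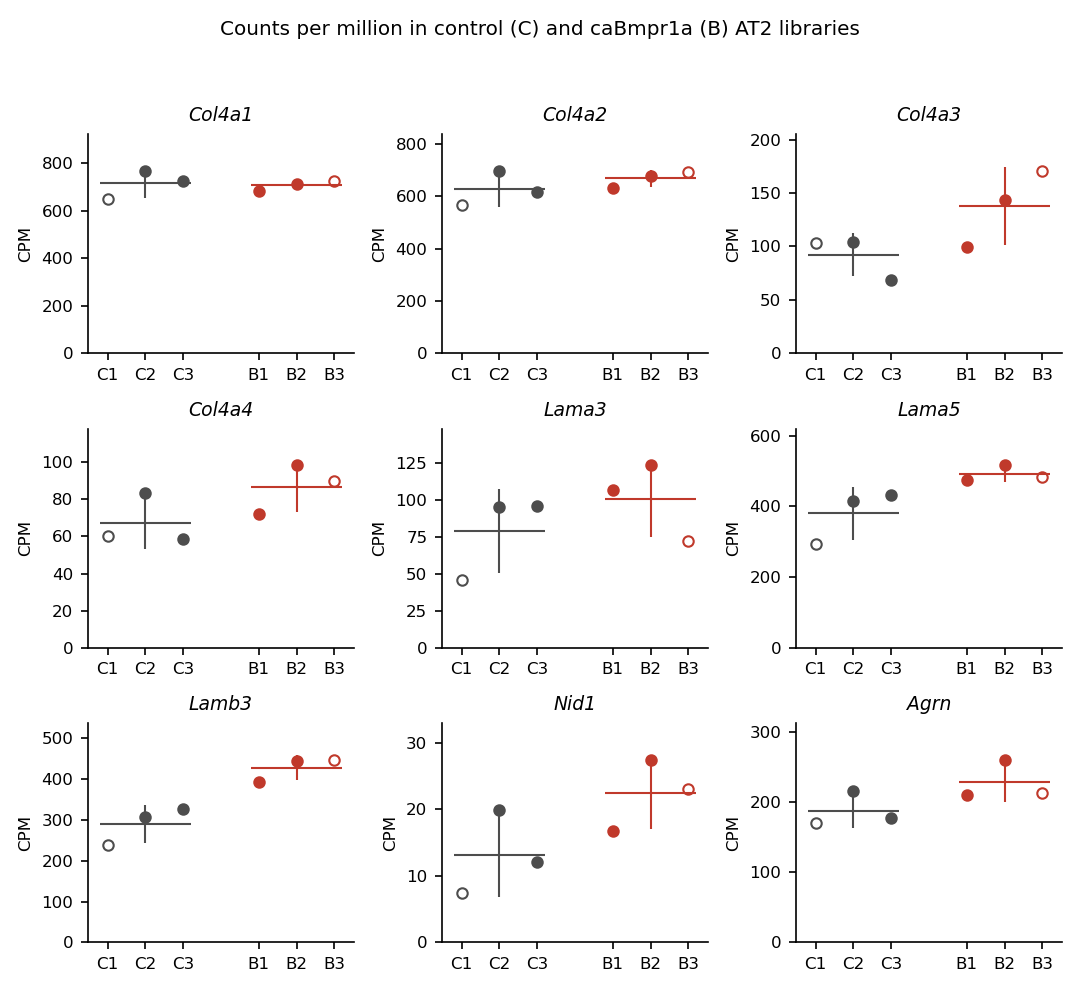
CPM of each gene in control replicates (C1 to C3) and caBmpr1a replicates (B1 to B3), with lines at the group mean and bars of 1 SD. Open circles mark the libraries with Y-linked reads. *Lama5* and *Lamb3* are the genes whose groups do not overlap, and C1 is the lowest library for 7 of the 9 genes.

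Ratios between chains, taken per length within each library, ask whether the makeup of the trimers' mRNA differed. With 3 libraries against 3, the two-sided exact permutation test cannot give a p below 0.1, so none of the 7 ratios compared could pass. *Col4a1* exceeded *Col4a2* by 1.11, 1.07 and 1.15 times in the control libraries and by 1.05, 1.02 and 1.02 times in the caBmpr1a libraries. The groups did not overlap, and the mean log2 ratio was lower in caBmpr1a cells by a difference of -0.11 (exact permutation p = 0.1, adjusted p = 0.467 over the 7 ratios), which is small beside the level of either gene. *Col4a3* to *Col4a1* was 0.123, 0.104 and 0.0730 in control and 0.112, 0.154 and 0.181 in caBmpr1a libraries, so caBmpr1a replicates 2 and 3 stood above all controls while replicate 1 lay among them (log2 difference 0.58, exact permutation p = 0.2, adjusted p = 0.467). *Col4a4* to *Col4a2* differed by 0.28 on the log2 scale (exact permutation p = 0.2, adjusted p = 0.467). *Col4a3* to *Col4a4* differed by 0.20 (exact permutation p = 0.5, adjusted p = 0.7), and the groups overlapped for both ratios. With 1 library left out, the difference ran from 0.053 to 0.36 for *Col4a3* to *Col4a4* and from 0.37 to 0.78 for *Col4a3* to *Col4a1*.

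As shares of the summed TPM of the 6 collagen IV genes, *Col4a1* made up from 42.8% to 47.7% and *Col4a2* from 41.6% to 42.5% over the 6 libraries. *Col4a3* was at 4.63 ± 1.11% in control and 6.46 ± 1.39% in caBmpr1a cells (SD, n = 3), and *Col4a4* at 3.69 ± 0.465% and 4.50 ± 0.508%. *Col4a5*, the chain that joins them in their trimer, was at 3.16 ± 0.485% and 3.21 ± 0.509%, and *Col4a6* took at most 0.311% in any library. The network of *Col4a3*, *Col4a4* and *Col4a5* was thus a minor part of collagen IV mRNA in all libraries.

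**Figure D4:**
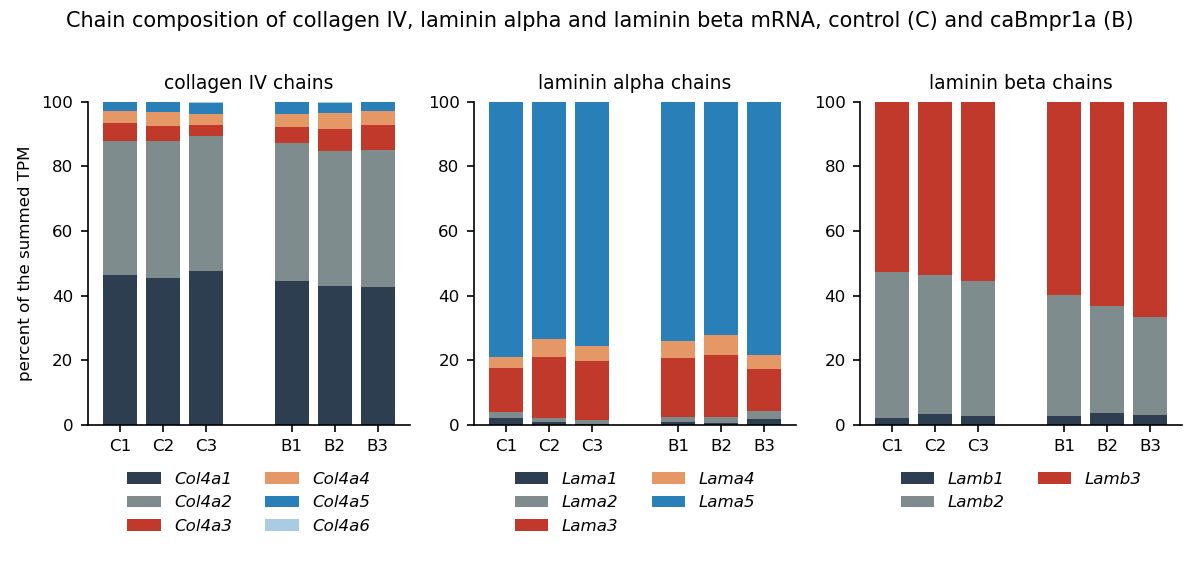
Shares of each chain in the summed TPM of the collagen IV, laminin alpha and laminin beta genes, for control (C1 to C3) and caBmpr1a (B1 to B3) libraries. *Lamb3* takes from 52.8% to 55.5% of beta chain TPM in control and from 59.7% to 66.7% in caBmpr1a libraries.

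Of the 3 laminin chains among the 9 genes, *Lamb3* had the smallest adjusted p. *Lamb3* (chromosome 1, 193301994 to 193343878, plus strand) encodes the beta chain of the laminin that anchors epithelia through hemidesmosomes. It was at 238, 307 and 327 CPM in control replicates 1, 2 and 3 and at 393, 444 and 448 CPM in the caBmpr1a libraries. Every caBmpr1a value was above every control value, and control replicate 1 was the lowest of all. The mean was 291 ± 46.7 CPM in control and 428 ± 30.8 CPM in caBmpr1a cells (SD, n = 3), 1.47 times as high. The log2 fold change of 0.56 (standard error 0.15, 95% interval 0.21 to 0.91) did not pass after adjustment over all genes (adjusted p = 0.293, edgeR). In the 4 libraries without Y-linked reads it was 0.43 (adjusted p = 0.105, edgeR), and over all alternatives the adjusted p ranged from 0.053 to 0.781.

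*Lama5* (chromosome 2, 180176373 to 180225859, minus strand) encodes the alpha chain most widely used by adult epithelia and endothelia. It was at 294, 414 and 433 CPM in control and at 475, 517 and 483 CPM in caBmpr1a cells. The groups did not overlap here either, with control replicate 1 far below the rest (log2 fold change 0.37, standard error 0.17, adjusted p = 0.528, edgeR). With 1 library left out the log2 fold change ran from 0.21 (without control replicate 1) to 0.47 (without control replicate 3), and in the 4 libraries without Y-linked reads it was 0.26. *Lama3* (chromosome 18, 12334024 to 12583012, plus strand) encodes the alpha chain that pairs with the *Lamb3* product. Its values were 45.9, 95.3 and 95.6 CPM in control and 107, 124 and 72.6 CPM in caBmpr1a cells. The libraries with Y-linked reads, control replicate 1 and caBmpr1a replicate 3, were the lowest of their groups. Over all 6 libraries edgeR fitted 0.35 on the log2 scale, with a standard error of 0.30 and adjusted p = 0.724, and between 0.074 (without control replicate 1) and 0.58 (without caBmpr1a replicate 3) with 1 library left out. In the 4 libraries without Y-linked reads it was 0.30.

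*Lamb3* exceeded its partner *Lama3* per length by 12.9, 8.01 and 8.49 times in the control libraries and by 9.16, 8.92 and 15.3 times in the caBmpr1a libraries. The highest ratios were in control replicate 1 and caBmpr1a replicate 3, so the spread lay within the groups (exact permutation p = 0.5, adjusted p = 0.7). *Lama3* to *Lama5* was between 0.165 and 0.263 in all libraries (log2 difference 0.0082, exact permutation p = 0.9). *Col4a3* to *Lama3* ran from 0.867 to 2.71 in control and from 1.12 to 2.83 in caBmpr1a libraries, and the groups overlapped (exact permutation p = 0.7, adjusted p = 0.817). The sign of the difference turned for *Lama3* to *Lama5*, *Lamb3* to *Lama3* and *Col4a3* to *Lama3* when single libraries were left out.

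Beside the other laminin genes, the *Lamb3* share of beta chain TPM was 54.0 ± 1.41% in control and 63.2 ± 3.50% in caBmpr1a cells (SD, n = 3), and that of *Lamb2*, the main other beta chain, 43.3 ± 1.67% and 33.6 ± 3.60%. The groups did not overlap for either share, which was not tested. *Lamb2* itself was at 313 ± 34.0 CPM in control and 307 ± 29.5 CPM in caBmpr1a cells (log2 fold change -0.027, adjusted p = 0.962, edgeR). *Lama5* made up from 72.2% to 79.1% of alpha chain TPM and *Lama3* from 13.0% to 19.0%.

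*Nid1* and *Agrn*, which link the laminin and collagen layers to each other and to cells, had higher means in caBmpr1a cells with overlapping groups. *Nid1* (chromosome 13, 13437602 to 13512275, plus strand), whose product bridges laminin and collagen IV, was at 7.35, 19.9 and 12.1 CPM in control and at 16.8, 27.5 and 23.1 CPM in caBmpr1a cells. Control replicate 2 was above caBmpr1a replicate 1, and control replicate 1 was again the lowest. Its log2 fold change was the largest of the 9 genes in the fit of all libraries, at 0.77, with the widest interval, from 0.0021 to 1.54 (standard error 0.34, adjusted p = 0.515, edgeR). It was 0.48 without control replicate 1, 1.19 without control replicate 2 and 0.51 in the 4 libraries without Y-linked reads. *Agrn* (chromosome 4, 156165290 to 156197488, minus strand), the heparan sulfate proteoglycan agrin, was at 170.2, 215 and 177 CPM in control and at 211, 260.5 and 214 CPM in caBmpr1a cells. Control replicate 2 exceeded the lower 2 caBmpr1a libraries (log2 fold change 0.28, standard error 0.14, adjusted p = 0.576, edgeR), and the 4 libraries without Y-linked reads gave 0.30. The sign of the log2 ratio differed between the ages for both genes, in a split looked at after the values were seen. Ratios were 1.38 for *Nid1* and 0.45 for *Agrn* at 12 weeks. At 16 weeks, with 1 library of each group, they were -0.25 and -0.031, a small difference for *Agrn*. Age cannot be told apart in this split from the levels of *Id1* and *Id3* or the libraries that stand apart.

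Endothelial cells and fibroblasts also make basement membrane, and in RNA of a sorted population fewer cells of a type and less RNA per cell cannot be told apart. Of 12 endothelial markers, 11 had a log2 fold change above 0, 0 were called and 6 were higher at an unadjusted p under 0.05 (edgeR; 0 called by DESeq2), beside 4.62% of all tested genes, with a median log2 fold change of 0.61. In the 4 libraries without Y-linked reads 11 of the 12 were above 0, with a median of 0.51. In that fit only *Kdr* and *Cldn5* were higher at an unadjusted p under 0.05 (edgeR), beside 6.26% of all tested genes. The summed level of the 12 was 388, 634 and 449 TPM in control replicates 1, 2 and 3. In caBmpr1a replicates 1, 2 and 3 it was 581, 881 and 712 TPM. The order of the libraries within each group was the order seen for *Nid1* and *Agrn*, and also for *Pdgfrb*, a marker of mesenchymal cells. At 16 weeks all 12 were lower in the caBmpr1a library (median log2 ratio -0.20). At 12 weeks 11 of 12 had higher means (median 1.10). *Nid1*, *Agrn*, *Col4a4*, *Col4a3* and *Col4a2* had the same difference in sign between the ages, at 16 weeks from 1 library of each group. The medians of the alveolar type 1, airway and mesothelial markers described below also differed in sign, and those of the mesenchymal, immune and AT2 markers did not. *Esam* was the most abundant endothelial marker, at 198 TPM and 32.7% of the sum, and was the exception in direction (log2 fold change -0.068). None of the 12 was at 0, and *Emcn* was the lowest at 6.58 TPM. The part of endothelial RNA in the values of *Nid1*, *Agrn*, *Col4a1*, *Col4a2* and the other genes was not tested.

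All 12 mesenchymal markers had a log2 fold change above 0, with a median of 0.54, 0 called and 5 higher at an unadjusted p under 0.05 (edgeR), beside 4.62% of all tested genes. DESeq2 called 0, and 3 (*Col1a1*, *Col1a2* and *Col3a1*) passed its adjusted p at changes under 2-fold. The 12 summed to 122, 177 and 152 TPM in control and to 201, 299 and 311 TPM in caBmpr1a libraries, so the groups did not overlap. *Mfap4* was their most abundant gene, at 78.7 TPM, and *Lum* the lowest, at 0.662 TPM. Alveolar type 1 (AT1) cells, the flat gas-exchange cells, are a known source of *Col4a3*, *Col4a4* and *Lama3*. Of 12 AT1 markers, 9 were above 0, with a median of 0.33 and 0 called by edgeR or DESeq2. At an unadjusted p under 0.05 in edgeR 1 was higher (*Rtkn2*, log2 fold change 0.84) and 1 lower (*Aqp5*, -0.53), beside 4.62% and 5.05% of all tested genes. The groups of *Aqp5* did not overlap, as for 10.1% of all tested genes on the lower side. They summed to 4139, 4002 and 3243 TPM in control and 3762, 4316 and 4044 TPM in caBmpr1a libraries, groups that overlapped, with *Ager* as 51.4% of the sum. The 10 AT2 markers summed to 267515, 246555 and 240002 TPM in control and 231485, 222951 and 215976 TPM in caBmpr1a libraries, and 9 of the 10 had a log2 fold change below 0. Of these 0 were called by edgeR, and 5 were lower at an unadjusted p under 0.05, beside 5.05% of all tested genes. DESeq2 called 1 of the markers as lower, beside 25 of 13672 genes called lower. How far any of these differences in cell content or state entered the basement membrane genes was not tested.

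The other markers belong to immune, mesothelial and airway cells. The 12 immune markers, led by *Cd68* at 37.5 TPM, summed to between 82.9 and 99.9 TPM in control and to 227, 129 and 82.9 TPM in caBmpr1a libraries. Of the 12, 11 were above 0, with a median log2 fold change of 0.72, and 0 were called by edgeR or DESeq2. At an unadjusted p under 0.05 in edgeR 1 was higher, beside 4.62% of all tested genes. Without the libraries with Y-linked reads 12 of 12 were above 0, with a median of 0.98. Of these, *Ptprc*, *Itgam*, *Csf1r*, *Mrc1*, *S100a8*, *S100a9* and *Laptm5* were higher at an unadjusted p under 0.05 (edgeR), beside 6.26% of all tested genes. In that fit *Csf1r* had an adjusted p of 0.0312 at a log2 fold change of 0.82 (edgeR), a change under 2-fold. The 4 mesothelial markers, led by *Msln* at 11.5 TPM, summed to between 10.2 and 21.8 TPM in control and reached 58.4 TPM in caBmpr1a replicate 3. All 4 were above 0, with a median log2 fold change of 0.73, and 0 were called by edgeR or DESeq2. Of these 1 was higher at an unadjusted p under 0.05 in edgeR, beside 4.62% of all tested genes. In the 4 libraries without Y-linked reads all 4 were above 0, with a median of 0.35. Of 8 airway markers, *Krt5*, a basal cell gene, was at 0 in all libraries. *Trp63*, also on this list, was detected in every library, at 0.878 TPM on average (log2 fold change 0.70, adjusted p = 0.688, edgeR). *Scgb1a1*, a club cell gene, made up 77.7% of the sum of the airway markers. That sum ran from 2379.9 to 3339 TPM in control and from 2920.1 to 4447 TPM in caBmpr1a libraries. Of the 7 tested, 4 were above 0, with a median log2 fold change of 0.17, and 1 passed as higher, beside 0.227% of all tested genes. It was *Tppp3*, named here because of its result (log2 fold change 1.85, adjusted p = 0.0165, edgeR). Its adjusted p from edgeR was 0.0846, 0.130 and 0.0932 without control replicate 1, 2 or 3 and 0.0778 without caBmpr1a replicate 2, at log2 fold changes from 1.82 to 1.90. *Cyp2f2*, a club cell enzyme, was at 214, 173 and 192 CPM in control and at 134, 139 and 127 CPM in caBmpr1a cells, without overlap (log2 fold change -0.53, adjusted p = 0.190, edgeR), with adjusted p-values from 0.0158 (DESeq2) to 0.709 over the alternatives. The part of these cells in the values of the 9 genes was not tested.

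Over the 6 libraries, the gene with the profile most like that of each member was found by Pearson's r of log2 CPM, as a description of libraries that share group, Y-linked reads and cell content. It was *Hspa4* for *Col4a1* (r = 0.982), *Chst11* for *Col4a2* (r = 0.991), *Ttc23l* for *Col4a3* (r = 0.993) and *Sh3tc2* for *Col4a4* (r = 0.997). For the laminins it was *Hip1r* for *Lama3* (r = 0.997), *Myh9* for *Lama5* (r = 0.995) and *P3h2* for *Lamb3* (r = 0.997). For *Nid1* it was *Robo4* and for *Agrn* it was *Acvrl1* (r = 0.997 for both), receptors best known from endothelial cells. Between 56 and 414 genes had an r over 0.9 with a given member, so such values are common with 6 libraries. Within the 9 genes, *Lama5* and *Lamb3* were the most alike (r = 0.95), *Col4a1* and *Col4a2* had r = 0.82 and *Col4a3* and *Col4a4* r = 0.82, while *Col4a3* and *Lama3* had r = -0.033.

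Beyond the 9 genes, 30 other basement membrane genes were listed, and all 30 passed the filter. None was called by edgeR. DESeq2 called 1, *Smoc2*, as lower, beside 25 of 13672 genes called lower. At an unadjusted p under 0.05 in edgeR 5 genes were higher and 1 was lower, beside the 4.62% and 5.05% of all tested genes. Of the 30, 19 were above 0, with a median log2 fold change of 0.32. The groups did not overlap for 7 higher and 1 lower gene, beside 7.0% and 10.1% of all tested genes. *Smoc2*, a calcium-binding matrix protein of basement membranes, was at 72.9, 34.4 and 37.0 CPM in control and at 23.3, 13.3 and 9.86 CPM in caBmpr1a cells. All caBmpr1a values were below all control values (log2 fold change -1.64, standard error 0.38, adjusted p = 0.202, edgeR). In the fit blocked by replicate edgeR gave an adjusted p of 0.0215 at the same value of -1.64. The replicate numbers are not known to pair the mice, so that fit is not a paired test. Over all alternatives the adjusted p of *Smoc2* ran from 0.000803 (DESeq2) to 0.765. In the 4 libraries without Y-linked reads the log2 fold change was -0.94. *Lama2*, an alpha chain of mesenchymal and muscle basement membranes, was at 6.01, 7.37 and 5.41 CPM in control and at 9.40, 12.5 and 12.8 CPM in caBmpr1a cells, again without overlap (log2 fold change 0.88, adjusted p = 0.198, edgeR). Its adjusted p was 0.0183 from DESeq2, at a change under 2-fold, and ran up to 0.778 over the alternatives. The other higher genes with an unadjusted p under 0.05 were *Lamc3*, *Hmcn1*, *Egflam* and *Fbln1*, with log2 fold changes of 0.98, 0.89, 0.60 and 0.47 and adjusted p-values from 0.405 to 0.499 (edgeR). With 1 library left out, the log2 fold change of *Hmcn1* ran from 0.53 to 1.15 and that of *Lamc3* from 0.61 to 1.23. The most abundant genes of the list, *Sparc*, *Tinagl1*, *Npnt* and *Lamb2*, had 355, 259.9, 153 and 123 TPM on average, and their groups overlapped.

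Genes that modify, fold, cross-link or export collagen had a median below 0. Of 18 listed and tested, 12 were below 0, with a median log2 fold change of -0.14, and 0 were called by edgeR. DESeq2 called 1, *P3h2*, as higher, beside 119 of 13672 genes called higher. At an unadjusted p under 0.05 in edgeR 2 were higher and 3 lower, beside 4.62% and 5.05% of all tested genes. *P3h2*, a prolyl 3-hydroxylase that acts on collagen IV, was at 11.1, 17.8 and 19.2 CPM in control and at 29.2, 38.9 and 36.9 CPM in caBmpr1a cells. Every caBmpr1a value was above every control value (log2 fold change 1.13, standard error 0.22, adjusted p = 0.127, edgeR). With a covariate for the Y-linked reads the adjusted p from edgeR was 0.0217 at 1.16, and in the 4 libraries without these reads it was 0.0582 at 0.92, within a range from 0.00127 (DESeq2) to 0.580 over all alternatives. *Plod2*, a lysyl hydroxylase, also had no overlap (log2 fold change 0.71, adjusted p = 0.323, edgeR). On the lower side, *P4ha1*, a catalytic subunit of prolyl 4-hydroxylase, was at 225, 235 and 230.2 CPM in control and at 174, 164 and 188 CPM in caBmpr1a cells, without overlap (log2 fold change -0.39, adjusted p = 0.318, edgeR). *P3h1*, a prolyl 3-hydroxylase of fibrillar collagens, and *Mia3*, a receptor for the export of large collagens, were at -0.31 and -0.30 on the log2 scale (adjusted p = 0.485 and 0.516, edgeR). *P4hb*, *Serpinh1*, *Ppib* and *P4ha1* were the most abundant genes of the list, at 568, 141, 141 and 111 TPM.

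Of 18 receptors for laminin, collagen IV and agrin, 13 were above 0 with a median log2 fold change of 0.24, and 0 were called by edgeR or DESeq2. At an unadjusted p under 0.05, 3 were higher and 0 lower, beside 4.62% and 5.05% of all tested genes. *Ddr1*, a collagen receptor tyrosine kinase of epithelia, was at 37.3, 49.5 and 48.9 CPM in control and at 71.4, 89.1 and 79.6 CPM in caBmpr1a cells. The groups did not overlap (log2 fold change 0.82, standard error 0.15, adjusted p = 0.103, edgeR), and the adjusted p was 0.0123 with a covariate for the Y-linked reads, 0.0439 with scaling by library size only (edgeR) and 0.00159 from DESeq2, at changes under 2-fold, and reached 0.564 without caBmpr1a replicate 2. *Itga2*, a collagen-binding integrin subunit, was at low levels, 0.897, 1.89 and 1.60 CPM in control and 4.13, 3.22 and 2.38 CPM in caBmpr1a cells (log2 fold change 1.14, adjusted p = 0.443, edgeR), and *Gpc3* was at 0.39 on the log2 scale (adjusted p = 0.499, edgeR). The most abundant receptors, *Bcam*, *Sdc1*, *Sdc4* and *Itgb1*, had 1007, 735, 498 and 257 TPM and log2 fold changes from -0.19 to 0.086.

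Of 20 proteases and inhibitors of matrix turnover, 19 passed the filter, without *Timp1*. Of these, 12 were above 0 with a median log2 fold change of 0.27, 0 were called by edgeR and 4 by DESeq2, which called 144 of 13672 genes in all. The same 4 genes, *Timp3*, *Mmp2* and *Hpse* among them, were those with an unadjusted p under 0.05 in edgeR, all higher, beside 4.62% of all tested genes. *Timp3*, an inhibitor of metalloproteinases that binds to matrix, was at 185, 191 and 164 CPM in control and at 270.0, 386 and 646 CPM in caBmpr1a cells. The groups did not overlap, and caBmpr1a replicate 3 was the highest (log2 fold change 1.27, standard error 0.28, adjusted p = 0.190, edgeR). It passed without caBmpr1a replicate 1 (log2 fold change 1.54, adjusted p = 0.0436, edgeR), and was at 0.91 without caBmpr1a replicate 3, with adjusted p-values from 0.000465 (DESeq2) to 0.580 over all alternatives. *Mmp2*, a gelatinase that also cleaves collagen IV, had 8.40 ± 3.51 CPM in control and 18.5 ± 3.20 CPM in caBmpr1a cells, and *Hpse*, the heparanase, 3.02 ± 0.610 and 6.49 ± 0.868 CPM (SD, n = 3), in both cases without overlap. Their log2 fold changes were 1.13 and 1.10, with adjusted p-values of 0.273 and 0.226 (edgeR). With a covariate for the Y-linked reads all 4 were called by edgeR, among 142 of 16723 genes. *Bmp1*, *Mmp15*, *Timp3* and *St14* had the highest levels of the list, 741, 429, 149.9 and 101 TPM.

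**Figure D5:**
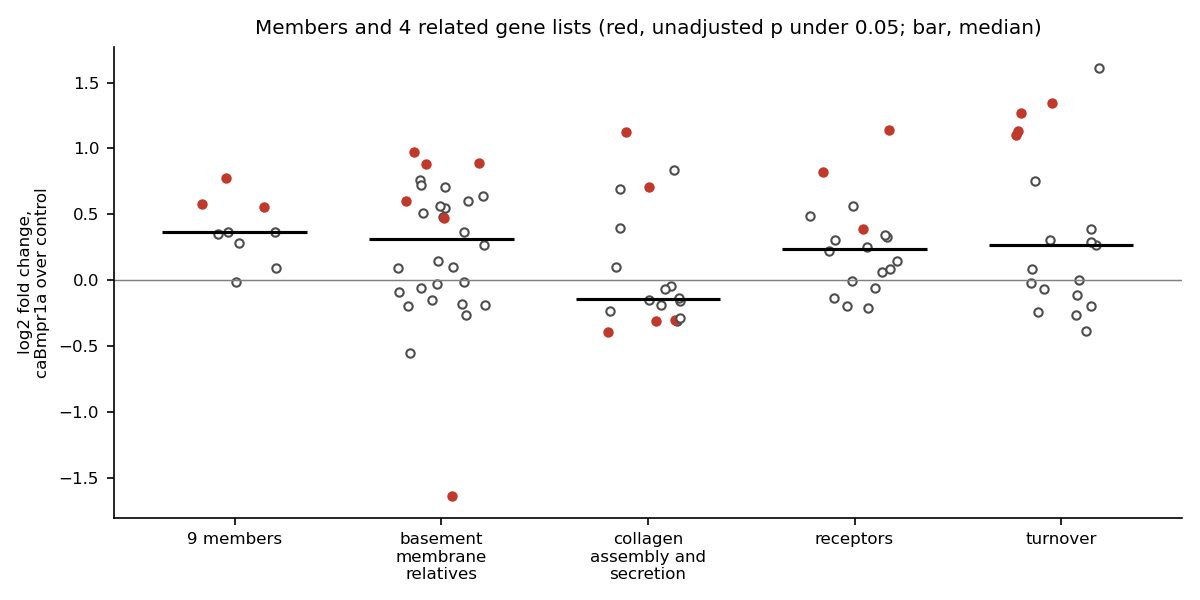
Log2 fold change of every tested gene of the 9 members and of the 4 related lists, in caBmpr1a over control AT2 cells (edgeR, n = 3 libraries per group), with red points for an unadjusted p under 0.05 and a bar at each median. The medians are 0.37, 0.32, -0.14, 0.24 and 0.27 from left to right, and *Smoc2* is the point at -1.64.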

How the data were processed

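Poly(A) RNA of sorted AT2 cells from 3 control and 3 caBmpr1a mice was sequenced as read pairs. By the methods, the authors trimmed reads, aligned them to mm10 with Hisat2, removed duplicates and counted fragments with featureCounts, version 1.5.3 by the file header. The deposited values are raw counts, without normalization. The header holds no option for pairs or strand. The missing option for pairs differs from the methods, so whether mates were counted separately is not settled. A read on more than 1 gene was not counted. No exon of the 9 genes overlapped another gene of the table. Each pair of libraries of a group differed by more than counting noise.

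Tests used edgeR 4.0.16 (R 4.3.3): TMM scaling, filterByExpr at its minimum of 10 counts, the quasi-likelihood test and p-values adjusted by Benjamini-Hochberg over all tested genes. The code was tested on simulated data. DESeq2 1.42.0, other scalings and filters, halved counts, covariates for age and Y-linked reads, a replicate block, adjusted p alone and left-out libraries were alternatives. TPM used the table's gene lengths. Ratios were tested by exact permutation, two-sided. The named genes are the 9 members, list genes that were called, had an unadjusted p under 0.05 or were among the 4 highest of their list, the most alike gene of each member, the most abundant marker of each cell type, and *Bmpr1a*, *Id1* and *Id3* as checks of the genotype, though not every gene the rule selects is named. Outside this rule, the Y-linked genes, *Col4a5*, *Col4a6*, *Timp1*, *Emcn*, *Lum*, *Krt5*, *Trp63*, *Csf1r* and *Cyp2f2* were named after their values were seen. So were *Tppp3*, *Rtkn2*, *Aqp5*, *Col1a1*, *Col1a2* and *Col3a1*, and *Kdr*, *Cldn5*, *Pdgfrb*, *Ptprc*, *Itgam*, *Mrc1*, *S100a8*, *S100a9* and *Laptm5*. The members and lists were chosen with earlier results of these data known.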

Additional observations from a re-analysis of the deposited data

How the results depend on the processing

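None of the 9 genes was called in any of the 17 alternatives, and the log2 fold changes of the 8 genes above 0 kept their sign. *Col4a1*, at -0.014, turned to 0.011 with median-of-ratios scaling, 0.12 with library size only, 0.012 with the CPM filter and 0.0042 with halved counts, and ranged from -0.086 to 0.036 with 1 library left out. Library size only moved the median of all genes from -0.0096 to 0.12, a shift that its values share. The number of members with an unadjusted p under 0.05 was 3, against 6 with library size only, 7 with the covariate for Y-linked reads and 1 to 5 with 1 library left out. Against 0 list genes called, DESeq2 called 1 relative, 1 assembly and 4 turnover genes, the Y-linked covariate 1 assembly and 4 turnover genes, and leaving out 1 library 0 to 1 turnover genes. All genes called numbered 40, against 144 with DESeq2, 142 with the covariate, 62 without a filter and 6 to 63 with 1 library left out. With 1 library left out, the log2 difference of *Lama3* to *Lama5* ran from -0.17 to 0.22, of *Lamb3* to *Lama3* from -0.082 to 0.39 and of *Col4a3* to *Lama3* from -0.22 to 0.62. The cause of these shifts was not tested.

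The replicate numbers belong to different mice. Deviations from the group means correlated at -0.32, 0.25 and -0.54 for replicates 1, 2 and 3, without a shared sign. With 3 libraries per group this check cannot exclude a pairing, and the sample titles give only the number. With the replicate block 41 genes were called, 0 members and 1 relative (*Smoc2*), and *Lamb3* was at 0.57 (adjusted p = 0.369, edgeR). If mates were counted separately, the precision of low counts such as those of *Nid1* is overstated. Halved counts stand in for that case.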

Other observations

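The labels give each group 1 mouse of 16 weeks and 2 of 12 weeks, and the ratio of the group means had opposite signs at the ages for 6 of the 9 genes, a split looked at after the values were seen. For *Col4a1* these were 0.067 at 12 weeks, where the groups overlapped, and -0.17 at 16 weeks. At 12 weeks both caBmpr1a libraries lay above both control libraries for the other 5, *Nid1*, *Col4a3*, *Col4a4*, *Agrn* and *Col4a2*, with log2 ratios of the means of 1.38, 0.87, 0.67, 0.45 and 0.21. At 16 weeks, with 1 library of each group, the same ratios were -0.25, -0.068, -0.21, -0.031 and -0.14. *Lamb3* was higher in caBmpr1a cells at both ages (0.66 and 0.35), as was *Lama5* (0.46 and 0.20). *Lama3* had ratios of 0.47 and 0.16, but its groups overlapped at 12 weeks, where single pairs of libraries ran from -0.40 to 1.43. In edgeR's test of the interaction of group and age, added after these signs were seen, 0 of 16723 genes passed, and 212 (1.27%) had an unadjusted p under 0.05, with 2 of the 9, *Nid1* and *Col4a4*, among them. With 1 library of each group at 16 weeks, the spread in that test comes from the 12-week libraries alone, so it does not show that the ages are alike or that they differ. The caBmpr1a library of 16 weeks was also the lowest of its group for *Id1* and *Id3*. Both libraries with Y-linked reads were of 12 weeks: control replicate 1, the lowest library for *Nid1*, *Agrn* and *Col4a2*, and caBmpr1a replicate 3, the highest for *Col4a3*. The endothelial markers turned in the same way. At 12 weeks they summed to 388 and 449 TPM in control and 881 and 712 TPM in caBmpr1a libraries. At 16 weeks the sums were 634 and 581 TPM. Median log2 ratios at 12 and 16 weeks also turned for AT1 (0.60 and -0.14), airway (0.88 and -0.37) and mesothelial markers (1.27 and -0.27). They kept their sign for mesenchymal (0.74 and 0.11), immune (0.16 and 1.36) and AT2 markers (-0.51 and -0.29). The part of any of these lists in the split was not tested. Age, the level of the BMP targets, the cell type markers that turned and the libraries that stand apart cannot be told apart in this split.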
